A study of Sinohyriopsis cumingii with 10 samples.

Results

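The 150 contigs described here are assembled transcript fragments of the freshwater pearl mussel Sinohyriopsis cumingii whose RNA stood higher at 12 h after implantation, and at every later time sampled, than at any of the 3 earliest times. They were selected on their measured levels in all 10 libraries, out of 211508 contigs readable in every file. Levels are CPM, a contig's reads scaled to a library of 1000000 reads, on the scale log2(CPM + 1). The selection score is the lowest of the 7 later values (12, 24, 48 and 96 h, 7, 14 and 30 d) minus the highest of the 3 early values (0, 2 and 6 h). A member had a score above 0.5, a mean CPM under 1000, a mean at 14 and 30 d within 1 log2 unit of its mean from 12 h to 7 d, and no joint peak at 12 and 24 h (by 1 log2 unit) or at 48 h, 96 h and 7 d (by 0.5). Since these values chose the members, everything given on their levels is a description, and no test was made on it.

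Each time had 1 library of total RNA labelled as pearl sac, from mussels 2 years old with shells 9 to 10 cm long. Whether 1 mussel or several went into a library is not stated in the labels, and neither is the tissue sampled at 0 h, so mussel and time cannot be told apart. Contigs carry no gene names in these files. The members therefore have no known role here, several may belong to 1 gene, and the tissue label could not be checked against marker genes. With whole-tissue RNA, a change in the number of cells of a type and a change in RNA per cell cannot be told apart.

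A pearl sac is the pouch of epithelium that grows from a grafted piece of mantle inside a host mussel. Grafting opens a wound, to which haemocytes, the circulating immune cells of molluscs, move, and the outer mantle epithelium then spreads and closes into a sac that lays down nacre on its inner face. Levels in whole tissue do not tell which of these cells make a transcript.

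The rule narrowed as follows. Of 211367 contigs with a mean under 1000 CPM, 475 had a score above 0.5. Of these, 42 were left out because their 14 and 30 d mean was lower than the band allowed and 2 because it was higher. A further 1 was left out as a 12 and 24 h peak and 14 as a peak of 48 h to 7 d. The remaining 416 were reduced to the 150 highest scores, which left 266 past the limit. The lowest score among the members was 0.672, and the member holding it was a contig of 4503 bases at a mean of 59.6 CPM. The highest score outside was 0.671, that of a contig of 524 bases at a mean of 3.22 CPM, so the limit of 150 falls where neighbouring contigs hardly differ.

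Libraries held 20315910 (96 h) to 24069268 (24 h) reads. They differed in how many of those reads went to very abundant contigs. Contigs with a mean of 1000 CPM or more took 56.5% of the reads at 0 h, 55.6% at 2 h and 58.6% at 6 h, against 31.7% (7 d) to 45.8% (24 h) in the later libraries. This share moves with the members' step, and beyond the other scalings given here its part in the step was not tested. Values are therefore also given with TMM factors (trimmed mean of M values, from edgeR), which set each library's scale so that the typical contig shows no change. The smallest factor was 0.594 (6 h) and the largest 1.65 (7 d).

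A score above 0.5 was uncommon with total counts and rarer with TMM. With total counts, 0.225% of the 211367 contigs had one. Among the 31404 contigs whose mean reached 1 CPM, 474 did (1.51%), and the same rule turned round, lower in every later library than in any early one by 0.5, took 62 (0.197%). With TMM the balance was the other way. Of 30857 contigs, 28 (0.0907%) were then higher in all later libraries and 395 (1.28%) were lower. Of the 150 members, 19 still met the whole rule with TMM and 20 with the size factors of DESeq2, and 19 met it with both. Another 87 members kept a TMM score above 0 without meeting the rule, which makes 106 in all, and for 44 at least 1 later library was level with or below an early one. The mean over the later libraries was above the mean over the early ones in 150 of 150 members with TMM, and by 0.5 log2 units or more in 130. So with TMM each member still stood higher on average after 6 h than before, while the unbroken gap between the 2 spans was kept by fewer. The selection largely sets the higher average, since every member had risen by at least 0.96 log2 units with total counts. It gives no support to the rise.

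**Figure D1:**
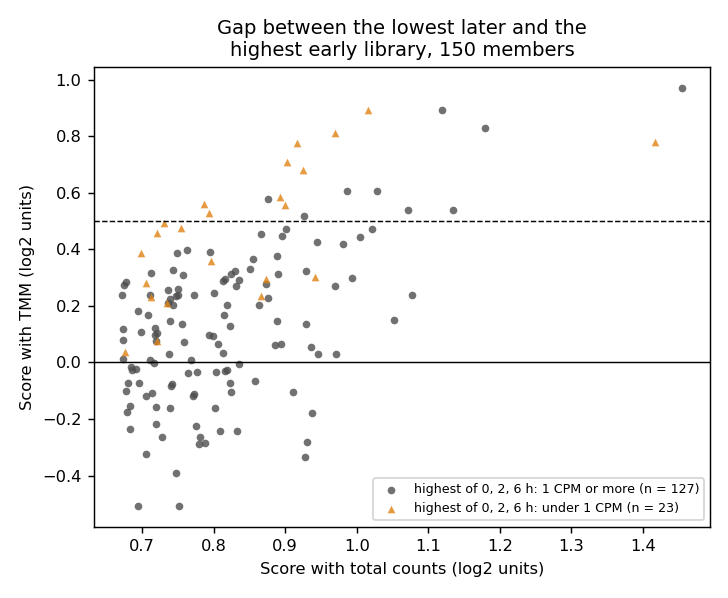
Score of each of the 150 members with total counts (horizontal axis, log2 units) against its score with TMM (vertical axis, log2 units), as circles where the highest early level was at least 1 CPM (127 members) and as triangles where it was under 1 CPM (23 members). The solid line marks 0 and the dashed line 0.5. The triangles all lie above 0, while 44 circles lie at or below it. The rule asked a larger fold of the triangles, which sets this in part.

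The step fell between 6 and 12 h. The median level of the members was 3.55, 4.00 and 3.50 CPM in the early libraries. In the later libraries it was 11.6, 14.8, 17.0, 13.1, 16.9, 16.3 and 10.2 CPM, in order of time. The 3 early medians lay close together, all later ones lay well above them, and 30 d was the lowest of the later ones. From 6 to 12 h the median member rose by 1.33 log2 units, and 129 members rose by over 1 log2 unit. On the log2(CPM + 1) scale, 1 log2 unit is more than a 2-fold change in CPM. Among the 52894 contigs kept by edgeR's filter on low counts, the same step had a median of 0.31 and 71.1% went up. With TMM the step was 0.78 for the median member and 0.00 for the median kept contig, and 45 members rose by over 1 log2 unit. The share of kept contigs that rose by that much is not given here. All 150 were higher at 12 h than at 6 h under both scalings, which the rule itself requires with total counts and makes likely with TMM.

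Before the step the members scarcely moved as a group. From 0 to 2 h 86 were higher and 64 lower with total counts, and 54% of the kept contigs were higher. The median change of the members was 0.02 log2 units, and only 1 changed by over 1 log2 unit. From 2 to 6 h 74 were higher and 76 lower, and 3 fell by over 1 log2 unit. Of the kept contigs 39.9% were higher at 6 h. With TMM 109 members were higher at 6 h than at 2 h, with a median change of 0.20. Of the kept contigs 50.7% were higher, with a median change of 0.005. The highest of the 3 early libraries was 0 h for 43 members, 2 h for 55 and 6 h for 52 with total counts, and with TMM it was 6 h for 89. No early library thus stood out with total counts, while with TMM 6 h was the highest of them for most members.

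The course after the step depended on the scaling, and the rule's late band and peak steps limit how far a member could move. Against each member's mean of 0, 2 and 6 h, the median member stood at 1.36, 1.52, 1.75, 1.47, 1.78, 1.65 and 1.11 log2 units from 12 h to 30 d. The median kept contig was above 0 too, at 0.24, 0.21, 0.51, 0.41, 0.64, 0.37 and 0.24, so that the members stood 0.87 to 1.31 above them. With TMM the members stood at 0.95, 1.12, 0.81, 0.77, 0.68, 0.95 and 0.69, and the kept contigs lay between -0.02 and 0.01 throughout. The rise to 48 h and 7 d seen with total counts is absent with TMM, under which 24 h was highest and 7 d lowest. By 12 h the median member had reached 87.1% of its mean later rise (range 34.6% to 155%). Of the 150, 38 were at or above that later mean already at 12 h, and 6 had covered less than 50% of it.

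**Figure D2:**
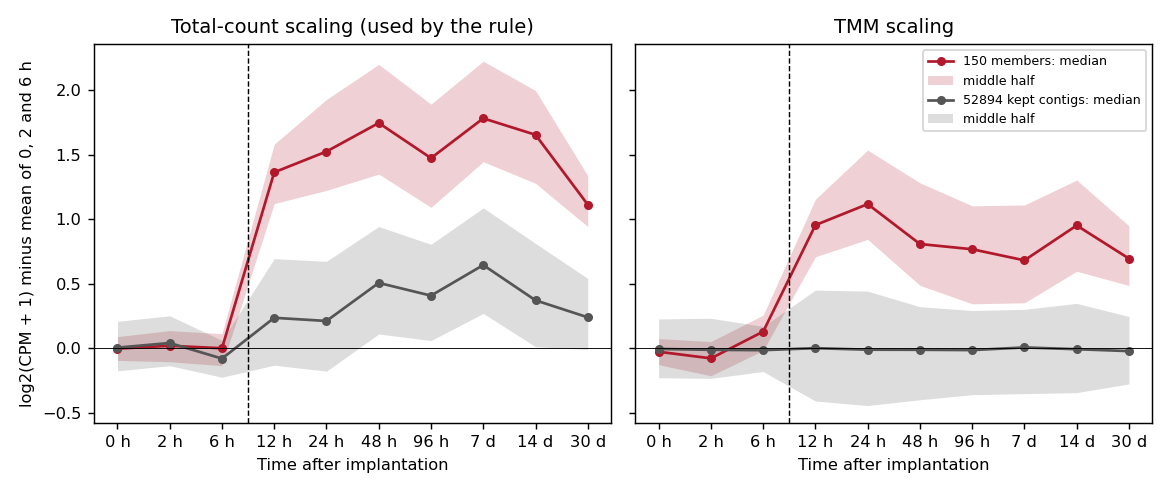
Median (line) and interquartile range (band) of log2(CPM + 1) minus the mean of 0, 2 and 6 h, for the 150 members in red and the 52894 kept contigs in grey, with 1 library per time; left with total counts, right with TMM. The members step up between 6 and 12 h in both panels, by a median of 1.36 at 12 h on the left and 0.95 on the right, and the kept contigs leave 0 on the left only.

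Later steps were smaller and went both ways. From 12 to 24 h 99 members were higher and 51 lower, and 16 rose over 2-fold. From 24 to 48 h 101 members were higher with total counts, but with TMM 118 were lower. Of the kept contigs 70.4% were higher with total counts and 46.7% with TMM. From 96 h to 7 d 122 members were higher with total counts, and with TMM 75 were higher and 75 lower. For the kept contigs the share that was higher was 75.5% and 52.2%. From 7 to 14 d 103 members fell with total counts and 96 rose with TMM, while 34.2% and 50.6% of the kept contigs rose. The last step, 14 to 30 d, went down under both scalings, for 115 members with total counts (median change -0.44, 30 of them over 2-fold) and for 98 with TMM (median -0.19). Of these later steps, only 12 to 24 h, 48 to 96 h and 14 to 30 d had the same majority direction for the members under both scalings. With total counts most kept contigs went the same way as most members at every later step except 12 to 24 h.

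At 30 d the members were lower than at 14 d but had not returned to where they began. The lowest later library was 30 d for 69 members and 12 h for 31, so 1 of these libraries set the score of 100 members. The ratio of 30 d to 0 h ran from 1.69 to 36.2 with a median of 2.74, and from 1.16 to 24.95 with a median of 1.89 under TMM. It was at least 2-fold in 118 members (64 with TMM) and at least 4-fold in 28. All 150 were above 0 h at 30 d with TMM too, but the selection sets this. Every member was at least 1.69-fold up with total counts, and the TMM factors of 0.684 (0 h) and 0.992 (30 d) take away less than that. In the limiting comparison of each member, its lowest later against its highest early library, the ratio of CPM ran from 1.62 to 6.68 with a median of 1.91. The exact 95% interval of that ratio lay above 1 in all 150 members; since the rule ranked the members on these same values, this gives no support to their rise. The interval covers counting error only, treats PCR copies as independent reads, and says nothing of the spread between mussels, since no time had more than 1 library.

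Few rises of the first week lasted in this way. With total counts 3759 contigs were above their early maximum by more than 0.5 at every time from 12 h to 7 d. Of these, 1686 (44.9%) were still so at 14 d, 688 (18.3%) at 30 d, and 475 at both, which is 12.6% (exact binomial interval 11.6% to 13.7%, contigs not being independent). Above the early maximum by any amount were 73.4% at 14 d and 58.6% at 30 d. With TMM 455 contigs were raised through 7 d and 28 of them, 6.15% (4.13% to 8.77%), stayed so at 14 and 30 d. The members come from this lasting remainder.

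The 42 contigs left out for a lower late mean show what the band removed. Their median stood at 2.02 log2 units above the early mean at 12 h, 3.03 at 48 h and 2.51 at 7 d, well over the members, and fell to 1.24 at 14 d and 0.89 at 30 d, below them. The 266 contigs past the limit of 150 had a shape closer to that of the members at a lower height, with medians of 1.01 (12 h), 1.20 (14 d) and 0.81 (30 d). The late gap, the mean of 14 and 30 d minus the mean of 12 h to 7 d, ran from -0.985 to 0.987 among the members. It was below 0 in 105 of them and above 0 in 45. The nearest contigs left out by the band had gaps of -1.01 and 1.09.

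In sum over all members, RNA of these contigs made up 0.168%, 0.173% and 0.162% of the reads at 0, 2 and 6 h. From 12 h to 30 d it made up 0.442%, 0.670%, 0.825%, 0.898%, 0.795%, 1.01% and 0.450%. The sum rose up to 96 h, was highest at 14 d and at 30 d was back near its 12 h share. From 1682 CPM at 0 h (exact interval 1665 to 1699) to 4496 CPM at 30 d (4468 to 4525) it grew 2.67-fold, and with TMM 1.84-fold. This sum leans on few contigs. The 10 most abundant members held 51.7% of the members' reads at 0 h and 51.8% at 30 d, with a low of 45.8% (12 h) and a high of 67.6% (96 h) between. The other 140 summed to 812, 844 and 822 CPM in the early libraries, then to 2394, 3087, 3368, 2912, 3758, 3330 and 2168 CPM from 12 h to 30 d, highest at 7 d. With TMM this sum of 140 was highest at 24 h, at 3193 CPM.

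Members also differed in when they were highest. With total counts the highest library was 12 h for 9 members, 24 h for 21, 48 h for 32 and 96 h for 5. It was 7 d for 45, 14 d for 31 and 30 d for 7. The median kept contig was also highest at 7 d with total counts, at 0.64 log2 units above its early mean. With TMM the highest library was 24 h for 52 members and 14 d for 35, and 7 d kept 15. Grouped by total counts, 30 members were highest at 12 or 24 h, 82 at 48 h to 7 d and 38 at 14 or 30 d. The 12 or 24 h group stood at a median of 1.89 log2 units above its early mean at 24 h and at 1.14 by 30 d. The 48 h to 7 d group reached 2.09 at 7 d and ended at 1.04. The 14 or 30 d group stood at 1.56 at 7 d, at 2.01 at 14 d and at 1.20 when sampling ended. All 3 groups had stepped up by 12 h, by medians of 1.5, 1.36 and 1.21 log2 units, and their medians at 30 d lay within 0.16 of each other. With TMM the first group was highest at 24 h (1.49) and the last at 14 d (1.26), while the middle group lay flat between 0.89 and 1.06 from 12 h to 14 d. The groups were set by each member's highest library, and TMM rescales the same reads. The peaks of the groups therefore follow in part from the grouping. Of the 19 members that met the rule with TMM, 14 were in the middle group, 5 in the last and 0 in the first.

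**Figure D3:**
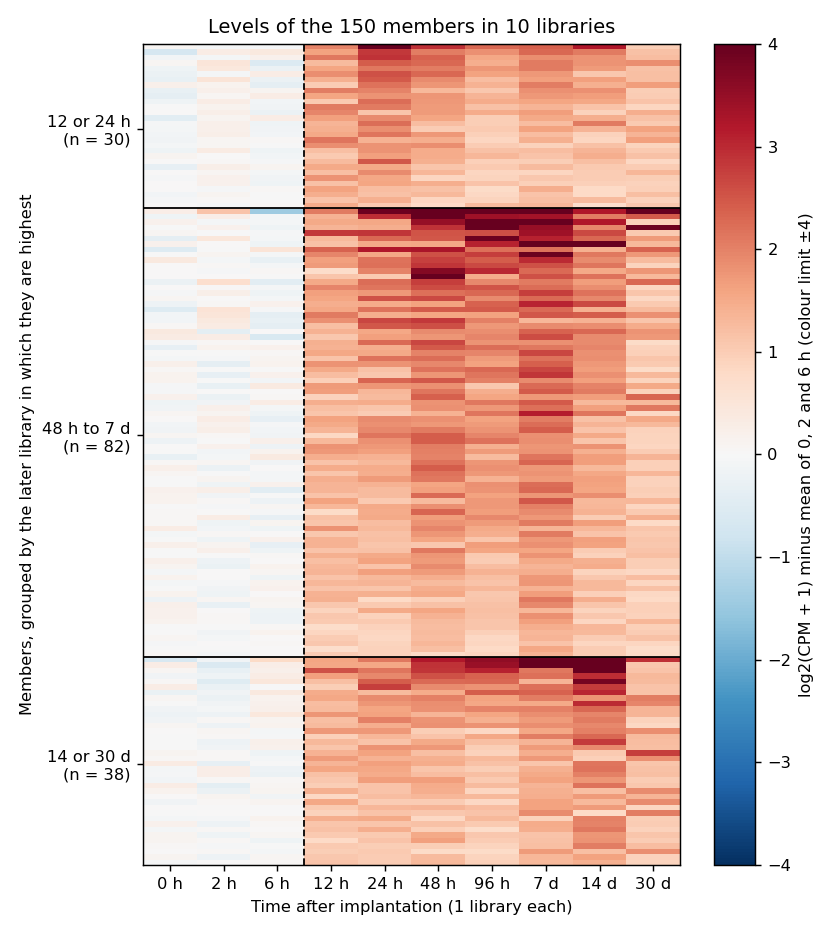
Each line is 1 of the 150 members and each column 1 library; colour is log2(CPM + 1) minus the member's mean of 0, 2 and 6 h, from blue (lower) to red (higher), with values beyond ±4 drawn at the end colour. Members are grouped by the later library in which they were highest (30, 82 and 38 members), and the change from pale to red at the dashed line is the step between 6 and 12 h that the selection required.

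**Figure D4:**
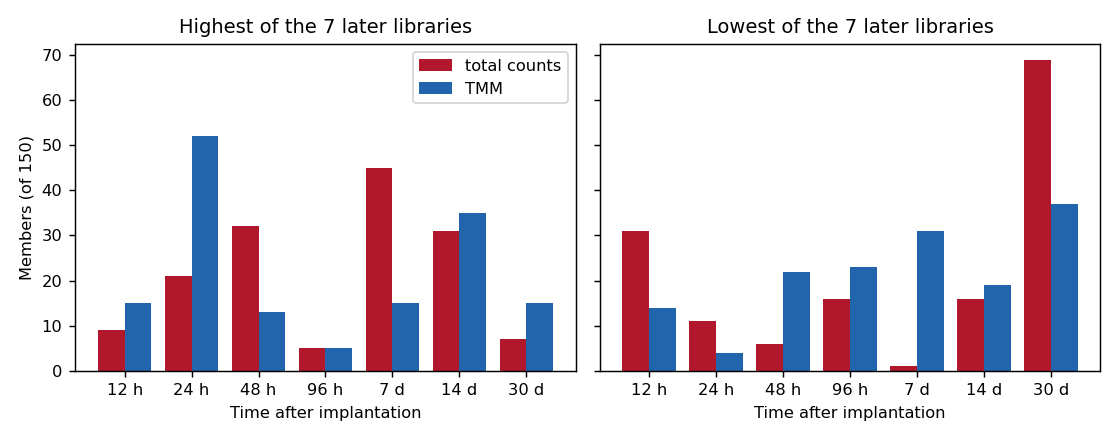
Number of the 150 members for which each later library was the highest (left) or the lowest (right) of the 7, with total counts in red and TMM in blue. With total counts 7 d was most often highest (45) and 30 d most often lowest (69). With TMM these were 24 h (52) and 30 d (37). With total counts the median kept contig was also highest at 7 d, but its lowest later value was at 24 h.

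The later levels of a member spread by a median of 2.38-fold between its lowest and highest library. In 37 members this spread was under 2-fold and in 9 it was over 10-fold. The steadiest member, a contig of 2268 bases picked out here for its small spread, was at 2.20, 1.90 and 2.63 CPM in the early libraries and at 6.09, 5.98, 7.85, 7.09, 7.47, 6.96 and 6.31 CPM from 12 h to 30 d, a 1.31-fold spread. Its early and later values form 2 separate plateaus with total counts, and its TMM score was 0.03. The SD of a member's later log2 values had a median of 0.41, and the rule's band and peak steps limit it. It was 0.43 over all kept contigs, and by mean level 0.53 (1 to 10 CPM), 0.66 (10 to 100 CPM) and 0.72 (100 to 1000 CPM).

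The members were long for this assembly. Their lengths, from reads, RPKM and library totals, spanned 230 to 13171 bases (median 2949); 95 were 2000 bases or longer and 4 were under 500. The median was 1139 over the kept contigs and 405 over all contigs with reads and a mean under 1000 CPM. CPM counts more reads for a longer contig, and log2(CPM + 1) compresses low values, so lengths were also set side by side at like abundance. Within 1 to 10 CPM the medians were 1721 bases for the members and 1485 for kept contigs, within 10 to 100 CPM 3568 and 2908, and within 100 to 1000 CPM 2950 and 2645. Mean levels of the members ran from 1.49 to 666 CPM with a median of 11.2, or per length from 0.518 to 524 RPKM with a median of 4.41. By mean level, 67 members lay at 1 to 10 CPM, 74 at 10 to 100 and 9 at 100 to 1000, and of these 14, 4 and 1 met the rule with TMM.

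No member was without reads in any early library; the lowest early count was 2 reads and the lowest later count 23. In 23 members all 3 early libraries were under 1 CPM, and in 127 at least 1 was at 1 CPM or more. The ratio of mean later to mean early CPM had a median of 8.18 in the 23 and of 3.50 in the 127, and ran from 2.27 to 29.8 over all members with a median of 3.74. The choice of members sets that difference in part, because a given score on log2(CPM + 1) asks for a larger fold at a low level: the lowest limiting ratio was 2.32 in the 23 and 1.62 in the 127. On the log2(CPM + 1) scale the rise had medians of 1.51 and 1.56. With TMM all 23 had a score above 0 and 10 of them met the rule, against 83 and 9 of the 127. The larger fold asked of the 23 sets this difference in part as well, so it does not show that they depend less on scaling. The 23 were also shorter, with a median of 1240 bases against 2984, and 14 members had under 10 reads in some early library, so their early level is known only roughly.

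The 10 members named next are the 2 with the highest score in each early state and the 2 with the highest mean CPM in each of the 3 groups by highest library.

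Among members under 1 CPM in the early libraries, contig276260 (2385 bases) had the highest score, 1.42. It was at 0.793, 0.452 and 0.876 CPM at 0, 2 and 6 h, then at 4.01, 5.28, 5.85, 4.13, 5.95, 4.90 and 5.98 CPM at 12, 24, 48 and 96 h, 7, 14 and 30 d. These values come from 18, 10 and 19 reads early and from 83 to 129 reads later. Its largest step was between 6 and 12 h. With total counts its later values stayed within a 1.49-fold range, the narrowest of the 10, and with TMM they ran from 3.25 to 6.02 CPM. Its limiting ratio, 12 h over 6 h, was 4.58 (interval 2.76 to 7.99), and its TMM score was 0.78.

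The second of that state, contig060342 (2987 bases), was at 0.309, 0.316 and 0.276 CPM early and at 1.79, 1.66, 38.3, 2.61, 6.64, 4.90 and 2.21 CPM later. All later libraries lay above all early ones, but 48 h, with 825 reads, stood far above its neighbours 24 h (40 reads) and 96 h (53 reads). Its later values spread 23.0-fold, its score was 1.02 and its TMM score 0.89. Its limiting ratio was 5.25 (2.33 to 13.9), a wide interval because the early counts were 6 or 7 reads.

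Among members at 1 CPM or more early, contig014614 (1055 bases) had the highest score of all, 1.46. It was at 17.0, 18.6 and 16.2 CPM early and at 68.8, 52.7, 105, 123, 275, 76.9 and 59.8 CPM later. The early values were level, 7 d was highest, and 14 and 30 d were back near 12 h. Its limiting ratio was 2.84 (2.54 to 3.18) and its TMM score, 0.97, was the highest of the members.

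The other member chosen on score in this state, contig091687 (1525 bases), was at 4.10, 4.84 and 3.55 CPM early and at 12.2, 13.0, 37.5, 96.6, 56.1, 18.6 and 76.1 CPM later. It had a high value at 96 h and another at 30 d, with 14 d low between them. At 30 d it stood 18.6-fold over 0 h. Its score was 1.18 and its TMM score 0.83.

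Of the members highest at 12 or 24 h, the most abundant was contig171873 (2984 bases). It was at 298, 332 and 259 CPM early and at 659, 885, 816, 655, 569, 569 and 557 CPM later, a score of 0.75. With total counts the groups are apart by a ratio of 1.68 (1.63 to 1.73). With TMM its early values were 436, 452 and 435 CPM and its later ones 673, 915, 570, 514, 345, 480 and 562, so 7 d lay below all 3 early libraries and the score was -0.39. The unbroken rise therefore holds with total counts and not with TMM. Under TMM every later library other than 7 d still lay above all 3 early ones, with 12 and 24 h highest.

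The next, contig157509 (5377 bases), was at 26.1, 26.7 and 31.4 CPM early and at 123, 214, 147, 83.8, 103, 100.2 and 67.4 CPM later. It peaked at 24 h, and 30 d was its lowest later library. Its score was 1.08 and its TMM score 0.24.

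Of the members highest at 48 h to 7 d, the most abundant was contig003092 (1327 bases). It was at 28.8, 53.5 and 8.11 CPM early and at 103, 371, 1546, 2616, 812, 224 and 624 CPM later. Its early values differed among themselves more than those of any other member (SD 1.31 log2 units), and its later mean was 29.8 times its early mean, the highest ratio of the 150. At 96 h it alone held 29.1% of the members' reads. Its score was 0.93 and its TMM score 0.52.

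The other, contig173300 (2969 bases), was at 119, 109 and 99.7 CPM early and at 211, 551, 608, 446, 405, 345 and 203 CPM later. It was highest at 48 h, and 12 h and 30 d, nearly equal, were its lowest later libraries. Its score was 0.77 and its TMM score 0.24.

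Of the members highest at 14 or 30 d, the most abundant was contig283645 (1405 bases). It was at 65.6, 35.2 and 63.5 CPM early and at 158, 156, 399, 588, 864, 4221 and 112 CPM later. It climbed to 14 d, where it held 41.8% of all members' reads, and at 30 d it was at its lowest later level. Its later spread, 37.8-fold, was the widest of the members. The member sum at 14 d thus rests on this contig in 1 library. Its score was 0.76 and its TMM score 0.07.

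The last, contig295159 (8570 bases), was at 68.6, 69.0 and 107 CPM early and at 271, 248, 204, 239, 291, 312 and 206 CPM later. With total counts its later values stayed within a 1.53-fold range. With TMM it was at 100.3, 94.1 and 180 CPM early and at 277, 256, 142, 188, 177, 263 and 207 later, so 48 h and 7 d lay below 6 h, and the score was -0.33. Of the 10, 5 met the whole rule with TMM and with DESeq2 size factors alike: contig276260, contig060342, contig014614, contig091687 and contig003092.

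**Figure D5:**
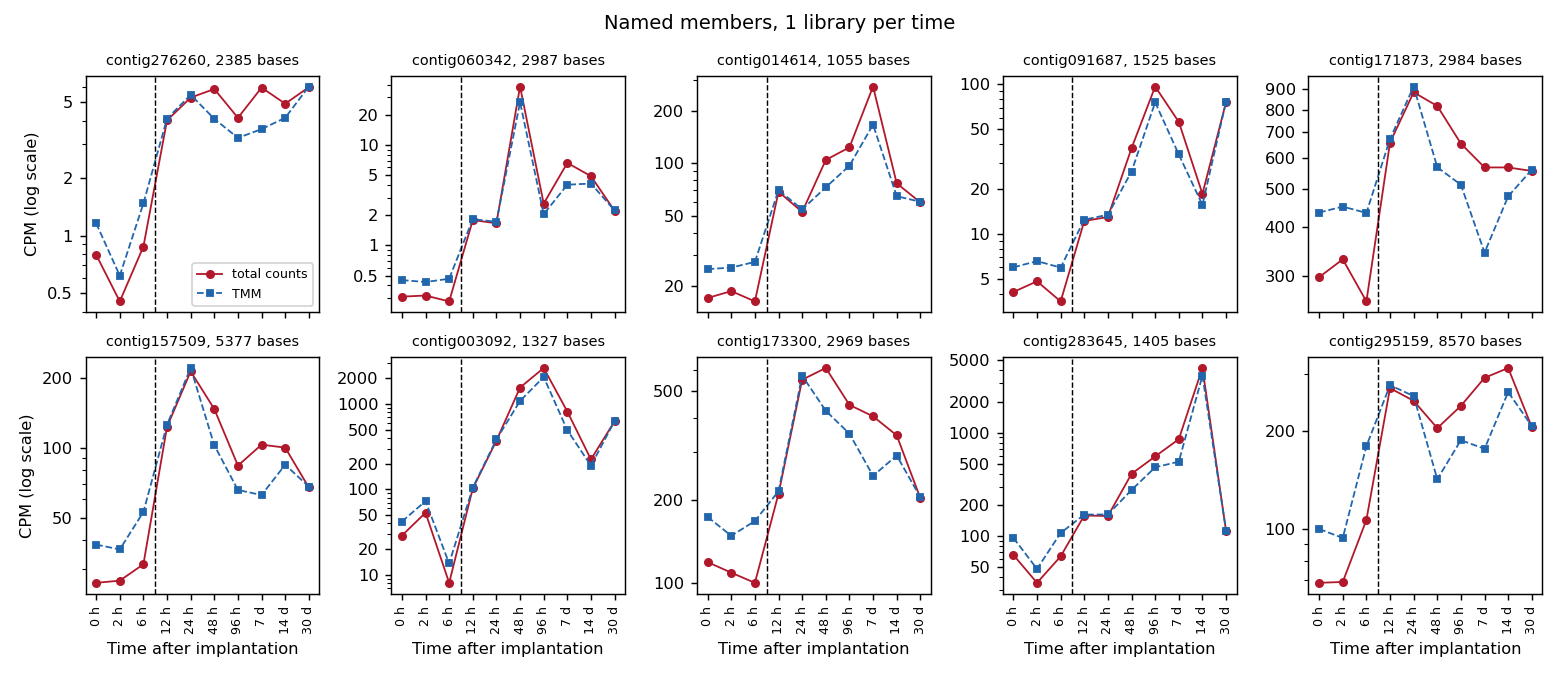
CPM (log axis, a scale of its own in each panel) of the 10 named members at each time, 1 library per time, with total counts as red circles and with TMM as blue squares; the dashed line separates the early from the later libraries. contig276260 shows a plateau from 12 h on, contig060342 and contig283645 a high value in 1 library (48 h and 14 d), and the TMM values of contig171873 and contig295159 fall back to early levels in some later libraries.

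The 19 members that met the rule with both TMM and DESeq2 size factors had larger changes than the other 131. Their later-to-early ratio of mean CPM had a median of 10.6 against 3.51. They were shorter, with a median of 2183 bases against 2954, and reached less of their later rise at 12 h, a median of 71.4% against 88.0%. Their mean level was also lower, a median of 6.76 CPM against 12.6, and lengths were not matched by level here. Of the 19, 10 were under 1 CPM in all early libraries, where the rule asked a larger fold. These scalings chose the 19 on the same levels, so the differences are given without a test.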

How the data were processed

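RNA-seq of 10 libraries, 1 per time, was used. Per the file headers, each deposited file gives reads and RPKM for every contig. The reads column was taken as estimated counts deposited by the authors: values were whole except 0.5, which was read as 0. RPKM values deposited by the authors were used for contig lengths and for 1 alternative. For assembler, aligner and counter the sources used here give no name. In the 30 d file 1 damaged line made 166 contigs unreadable, and these were left out of all libraries. TMM factors came from edgeR 4.0.16 on 52894 contigs kept by filterByExpr, and size factors from DESeq2 1.42.0 (R 4.3.3). Scripts ran in Python 3.11.15 and were tested on simulated data. No significance test was made: there was 1 library per time and the rule used all 10. Intervals are exact (binomial, or conditional binomial for ratios) at 95% and cover counting error only. The named members were chosen by a written rule: the 2 highest scores in each early state (no reads, under 1 CPM, 1 CPM or more) and the 2 highest mean CPM in each group by highest library; the no-reads state was empty. The members, groups and rules were chosen with earlier results of these data known. Alternatives were other scalings, pseudocounts, limits and leaving out each library.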

Additional observations from a re-analysis of the deposited data

Results flagged for a closer look

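Of the 166 contigs on the damaged line of the 30 d file, 1 (0.602%) met the rule on the other 9 libraries, against 1456 (0.688%) of the 211508 readable contigs under the same 9-library rule. It drew attention as a signal outside the data used for the members. It was at 27.7, 32.3 and 19.9 CPM at 0, 2 and 6 h and at 75.1, 138, 147, 96.3, 90.5 and 59.1 CPM from 12 h to 14 d, a score of 0.85 without 30 d. The percentages are near each other, and the 30 d level of this contig was not analysed here. With 1 library per time, no library could be set against others of its group.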

How the results depend on the processing

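The 416 contigs that met the rule with total counts became 24 with TMM, 26 with DESeq2 size factors and 25 when libraries were scaled without the 1000 most abundant contigs. Of the 150 members, 19, 20 and 23 were kept. The median rise, 1.55 log2 units, became 0.87 (TMM), 0.87 (DESeq2) and 0.98. The share of rises that lasted, 12.6%, became 6.15%, 6.79% and 4.18%, and the 30 d to 0 h ratio of the members' reads, 2.67, became 1.84, 1.85 and 1.82. The score of contig171873 turned to -0.39 (TMM), -0.39 (DESeq2) and -0.10, and that of contig295159 to -0.33, -0.33 and -0.014. All 10 named members kept a score above 0 in every other setting, and 24 of 30 values did under these 3 scalings. The cause was not tested. A pseudocount of 0.5 CPM gave 688 contigs and a lasting share of 15.4%; one of 5 CPM gave 112 contigs, 77 members, a median rise of 1.10 and a share of 8.99%. The median rise on log2(RPKM + 1) was 1.31. A score above 1 left 12 contigs, all members. Leaving out each library in turn gave 414 (without 7 d) to 1456 (without 30 d) contigs and a share of 11.2% (without 96 h) to 44.9% (without 30 d), with 129 to 150 members kept and median rises of 1.51 to 1.62; a minimum over fewer libraries can only raise a score. The full 30 d total, an alternative added after seeing the data, left 416 contigs. No paired analysis was possible because each time had 1 library. At this depth the lowest members rest on few early reads, and the spread between mussels is unknown.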

Other observations

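A pair of abundant members, picked out after their values were seen, ran side by side. contig173300 and contig189105 are nearly equal in length, 2969 and 2948 bases, and their CPM kept a ratio between 1.09 (2 h) and 1.28 (24 h) in all 10 libraries. Pearson's r of their log2(CPM + 1) was 0.998 over the 10 libraries and 0.995 over the 7 later ones, as a description over libraries that share depth and scaling with both contigs. A further member of similar length, contig115974 (2950 bases), had r of 0.962 and 0.961 with them over the 10 libraries and of 0.874 and 0.888 over the 7 later ones. For contig171873 (2984 bases) r with the pair was 0.918 and 0.910 over the 10 libraries and 0.670 and 0.641 over the 7 later ones. The step that the rule required lifts r over 10 libraries for any pair of members; among the 9 members with a mean of 100 CPM or more its lowest value was 0.53. Whether such contigs belong to 1 gene could not be seen from these files. No members lay within 10 contig numbers of each other.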
